A study of Caenorhabditis elegans with 12 samples.

Results

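The left end of chromosome X of Caenorhabditis elegans was examined gene by gene in whole day-7 adults. The genes were all those on X that start at or before position 400000 of build WBcel235 in the deposited table, of any biotype, with at least 1 read over the 12 libraries. This gave 74 genes of the 26434 with a read in the whole table; another 24 annotated genes of the span had no read in any library. The region was chosen by the measured reads themselves, since part of it had almost none in the mutant, so the differences inside it are given as a description, without a test. The mutant was TG1660, which carries the tm2842 allele of the nuclease gene xpf-1, written xpf-1(tm2842), and it was set against the wild-type strain N2, with 6 libraries of each. All animals were day-7 adults fed E. coli OP50, and each group is 1 strain, so effects of the allele and other differences between the strains cannot be told apart.

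The arms of the worm's autosomes are known to be rich in repeats, pseudogenes and young gene families, while conserved and widely expressed genes cluster in their centres. Whether X follows this pattern was not examined here. Each chromosome end is capped by a telomere, a run of short repeats that telomerase and end-binding proteins maintain. XPF-1 is the catalytic subunit of a structure-specific nuclease that cuts out damaged stretches of a strand in excision repair, and it takes part in the repair of crosslinks and broken ends. Hermaphrodites carry a pair of X chromosomes, and a dosage compensation complex lowers transcription from both of them.

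Total counts were 18407182 to 22817135 reads in the xpf-1 libraries and 18667885 to 22370786 in the N2 libraries. The targeted gene xpf-1 had 213 to 304 reads in the xpf-1 libraries and 1192 to 1758 in the N2 libraries. N2 replicate 6 has a genotype label that names the mutant, whereas its title and strain label name N2. It had 1468 xpf-1 reads and a summed level of 154.9 CPM in the stretch described next (CPM, counts scaled to a common library size by TMM), against 140.5 to 152.1 in the other N2 libraries and 0.423 to 1.195 CPM in the xpf-1 libraries. Without it the stretch kept its start, its end and its count of 25 genes. Markers of intestine, muscle, neurons and germline all averaged at least 1 CPM in both groups. Of the hypodermis markers, col-19 averaged 204.8 CPM in xpf-1 and 253.7 CPM in N2, dpy-7 averaged 1.118 CPM in xpf-1 and 0.0582 CPM in N2, and rol-6 was near 0 in both groups. The 3 sperm markers summed to 2.26 to 4.83 CPM in the xpf-1 libraries and 0.827 to 2.57 CPM in the N2 libraries.

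A run of 25 consecutive genes kept under 10% of its N2 level in the mutant. It started with Y35H6.3 at 32451 and ended with set-33, whose span closes at 260110, a length of 227.7 kb. The run was counted over genes with at least 30 reads over the 6 N2 libraries, called judged here. Among all 15303 judged genes of the table, 53, or 0.346%, were under 10%, and 27 of these 53 lie at the left end of X. With the 23 genes of fewer reads that start between the first and the last gene of the run, the stretch holds 48 genes. Another 5 genes lie between it and the chromosome end, and 21 lie to its right.

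**Figure D1:**
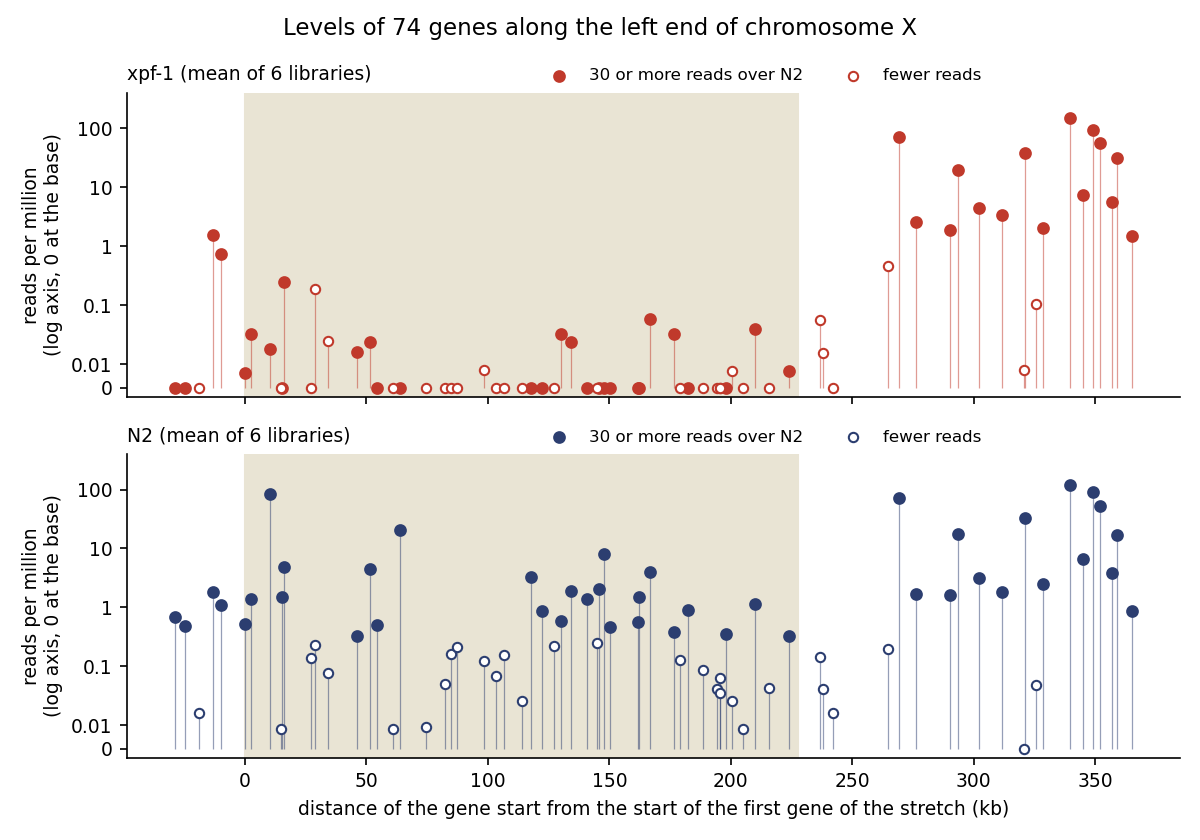
Mean CPM (log axis, 0 drawn at the base) in xpf-1 (top) and N2 (bottom) for the 74 genes, against the distance of the gene start from the first gene of the stretch in kb. Shading marks the stretch of 227.7 kb; filled points are judged genes, and most filled points in the shading stand at or near 0 in xpf-1 while the lowest filled point to the right stands at 1.51 CPM in xpf-1 and 0.882 CPM in N2 (R04A9.6).

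Summed over its 48 genes, the stretch stood at 0.767 ± 0.254 CPM in xpf-1 and 148.6 ± 5.56 CPM in N2 (SD, n = 6 each). These sums were 95 reads over the 6 xpf-1 libraries and 17832 over the 6 N2 libraries. An xpf-1 library held 10 to 22 reads from the whole stretch, on 3 to 8 of its genes, while an N2 library held 2534 to 3309 reads on 35 to 39 genes. The 21 genes right of the stretch summed to 488.6 ± 11.7 CPM in xpf-1 and 428.4 ± 13.0 CPM in N2. Fewer cells that express a gene and less RNA per cell cannot be told apart in whole animals. Whether the genes are missing from the mutant's DNA or are present and silent cannot be told apart from read counts.

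**Figure D2:**
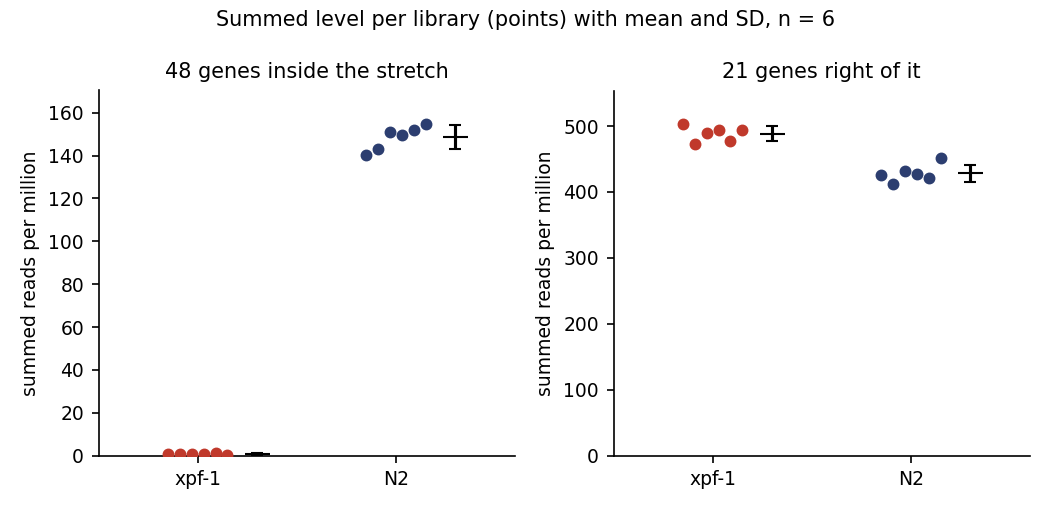
Summed CPM in each library for the 48 genes of the stretch (left) and the 21 genes to its right (right), xpf-1 and N2, with mean and SD beside the 6 points of a group. Inside, all xpf-1 libraries lie at or below 1.195 and all N2 libraries at or above 140.5.

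The gene with the most reads in the stretch was Y73B3A.1 (WBGene00022203, minus strand, 42875 to 47060), a protein-coding gene. It had 0 reads in 5 xpf-1 libraries and 2 in replicate 5, against a lowest, median and highest of 1441, 1682 and 2060 reads in the N2 libraries. It alone supplied 56.9% of the N2 reads of the stretch. The ratio of N2 over xpf-1 was 5350, with a 95% counting interval of 1480 to 44200. Such intervals are exact binomial ones and cover counting error only.

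Y73B3A.4, another protein-coding gene (96342 to 104777, minus strand), had 0 reads in every xpf-1 library and 297 to 479 in the N2 libraries, with a median of 434.5. It was at least 858-fold lower in xpf-1. Here and below, such bounds put 3 reads over the 6 xpf-1 libraries in place of 0. T08D2.6, whose deposited length is only 210 bases (180080 to 181874), had 0 reads in every xpf-1 library and 142 to 202 in the N2 libraries, with a median of 156.5. It was at least 341-fold lower. Per kilobase of the deposited length, Y73B3A.1 and T08D2.6 had the highest levels of the judged genes of the stretch in N2, at 40.8 and 38.5 CPM per kb. The median of the judged genes inside was 0 in xpf-1 and 1.3 CPM per kb in N2, and right of the stretch it was 8.03 CPM per kb in xpf-1 and 7.25 CPM per kb in N2.

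Of the 25 judged genes of the stretch, 13 had no read in any xpf-1 library. Among the 15303 judged genes of all chromosomes, 18, or 0.118%, had none, and 15 of these 18 were at the left end of X. All 9 of the 18 with over 100 reads in N2 were there too. The fold bounds of the 13 genes ran from at least 15.1 to at least 858.

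In the first part of the stretch, nearest to the chromosome end, several gene models overlap. Y73B3A.20 had 0 reads in xpf-1 and 24 to 35 in the N2 libraries (median 30.5), at least 63.6-fold lower in xpf-1. The span of Y73B3A.18 overlaps that of Y73B3A.20 and covers the noncoding RNA gene Y73B3A.23 on the same strand. Y73B3A.18 was the only judged gene of the stretch with reads in all 6 xpf-1 libraries. It had 3 to 9 reads in these libraries (median 4) and 67 to 121 in the N2 libraries (median 99), a ratio of N2 over xpf-1 of 20.5 (14.2 to 30.7). Its 30 reads made up 31.6% of all xpf-1 reads of the stretch. The assignment of reads between overlapping genes is uncertain, since no label or header names the strand or multi-mapping settings of the counting.

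Y35H6.3, the outermost gene of the run, had 1 read in xpf-1 replicate 6, 0 in the other xpf-1 libraries and 9 to 14 in the N2 libraries (median 10). Y73B3A.21 had 3 reads in xpf-1 replicate 1, 1 in replicate 5 and 0 in the others, against 20 to 39 in the N2 libraries (median 24.5). Neither gene's groups overlapped in CPM, but both genes are in the run because of their lost reads, so this supports nothing. Y73B3A.3 had 3 reads over the xpf-1 libraries, none above 2, and 82 to 111 in each N2 library (median 88), a ratio of N2 over xpf-1 of 191 (65.0 to 928). The pseudogene Y73B3A.t1 lies within the span of Y73B3A.3 on the other strand and had 0 reads in xpf-1 and 4 to 16 in the N2 libraries. Y73B3A.16 had 1 read each in xpf-1 replicates 1 and 4 and 2 to 13 in the N2 libraries.

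In the middle, Y73B3A.9 had 0 reads in xpf-1 and 53 to 77 in the N2 libraries (median 65.5), at least 136-fold lower in xpf-1. Its neighbour Y73B3A.10 also had 0 in xpf-1 and 8 to 25 in the N2 libraries. A series of T08D2 genes follows. T08D2.5 had 0 reads in xpf-1 and 33 to 48 in the N2 libraries, T08D2.8 had 0 and 11 to 43, and the pseudogene T08D2.3 had 0 and 19 to 33. These 3 genes were at least 87.5-fold, 65.0-fold and 59.4-fold lower in xpf-1. T08D2.2 had 3 reads in xpf-1 replicate 1, 0 in the others and 30 to 47 in the N2 libraries, a ratio of N2 over xpf-1 of 79.1 (26.7 to 386).

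Genes with a family name had few reads in N2 to begin with. T08D2.1, now named tmed-12 after the p24 family of proteins that carry cargo between the endoplasmic reticulum and the Golgi, had 3 and 1 reads in xpf-1 replicates 2 and 5 and 4 to 25 in the N2 libraries. T08D2.7, now chkr-1, a name given to relatives of checkpoint kinases, had 0 in xpf-1 and 5 to 16 in the N2 libraries. The SET domain genes take their name from the domain found in histone methyltransferases. Of these, set-28 had 0 reads in xpf-1 and 8 to 23 in the N2 libraries (median 19.5), and set-33 had 1 read in xpf-1 replicate 2 and 1 to 10 in the N2 libraries (median 7.5). The small nucleolar RNA T08D2.11, of a class that guides RNA modification, had 0 reads in xpf-1 and 6 to 22 in the N2 libraries.

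**Figure D3:**
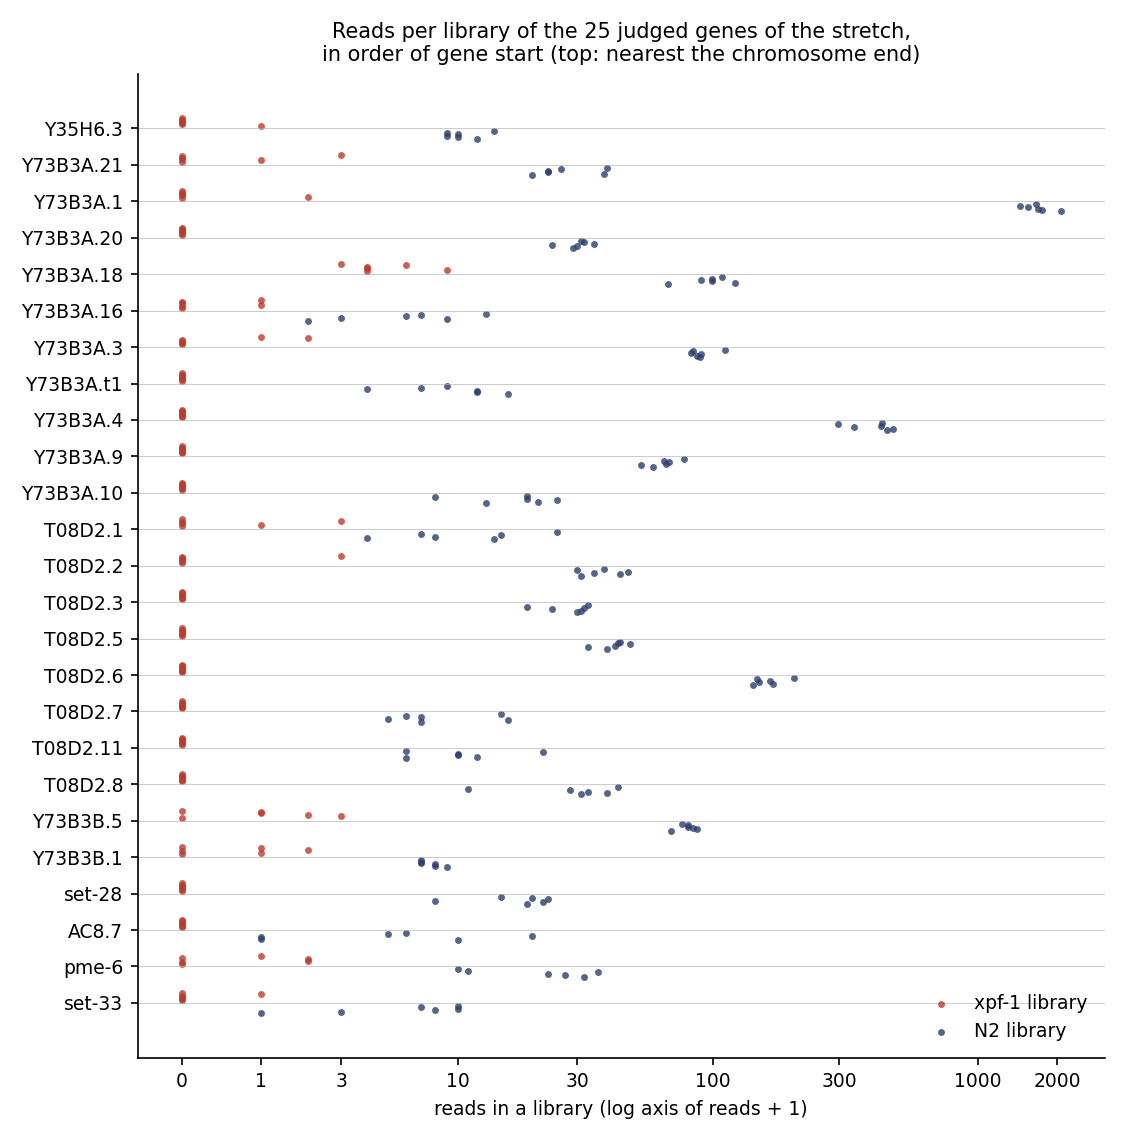
Reads in each library (log axis of reads + 1) for the 25 judged genes of the stretch in order of gene start, xpf-1 above N2 in each line. The xpf-1 points lie between 0 and 9 reads; the N2 points of Y73B3A.1 reach 2060.

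Toward the right edge, the pseudogene Y73B3B.5 had 7 reads over the xpf-1 libraries, none above 3, and 69 to 87 in each N2 library (median 80), a ratio of N2 over xpf-1 of 71.7 (34.5 to 179). Y73B3B.1 kept the largest share of its N2 level among the 25 genes, 8.45%, from 4 xpf-1 reads and 46 N2 reads. AC8.7 had 0 reads in xpf-1 and 1 to 20 in the N2 libraries. The pseudogene pme-6, named in the class of poly(ADP-ribose) metabolism enzymes, had 5 reads over the xpf-1 libraries and 139 over the N2 libraries, where single libraries held 10 to 36. The pseudogene AC8.2 lies within its span on the other strand. The counting intervals of such genes are wide: the ratio of N2 over xpf-1 was 12.1 (4.43 to 46.4) for Y73B3B.1 and 29.3 (12.3 to 91.7) for pme-6.

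The other 23 genes of the stretch had 1 to 29 reads each over the N2 libraries and were not judged one by one. Together they had 29 reads in xpf-1 and 258 in N2, and 19 of the 23 had no read in xpf-1. They include the F-box genes fbxa-16, fbxa-221 and fbxa-222, of a large worm family whose domain links proteins to ubiquitin ligases, with 0 reads in xpf-1 and 26, 6 and 19 over the N2 libraries. The calmodulin-named cal-6 had 0 and 19 reads, the ETS factor elk-2 had 0 and 1, and the microRNA mir-258.2 had 0 and 4. One gene stood apart: the pseudogene Y73B3A.2 had 1 to 6 reads in the xpf-1 libraries and 0 to 10 in the N2 libraries, with sums of 24 and 28. Its ratio of N2 over xpf-1 was 1.23, with an interval of 0.688 to 2.22. Y73B3A.2 and Y73B3A.18 together held 56.8% of the xpf-1 reads of the stretch. The neighbouring pseudogene Y73B3A.17 had 3 reads in xpf-1 and 9 in N2, Y73B3A.13 had 1 and 14, and AC8.9 had 1 and 3.

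The 5 genes between the stretch and the chromosome end did not behave alike. CE7X_3.1, the outermost gene with reads (3623 to 7154, plus strand), had 0 reads in every xpf-1 library and 6 to 17 in the N2 libraries (median 15). Its neighbour CE7X_3.2 (7582 to 9303) had 0 in every xpf-1 library and 4 to 20 in the N2 libraries (median 8). CE7X_3.1 was at least 29.5-fold lower in xpf-1. Between them and the stretch, VY35H6BL.2 (19149 to 20433) had 26 to 38 reads in the xpf-1 libraries (median 34) and 22 to 57 in the N2 libraries (median 36). VY35H6BL.1 (22435 to 24953) had 13 to 18 reads in the xpf-1 libraries (median 16.5) and 18 to 25 in the N2 libraries (median 21.5). For these 2 genes the groups overlapped in CPM, and neither was called by edgeR's quasi-likelihood test. The log2 fold was -0.25 ± 0.22 for VY35H6BL.2 and -0.55 ± 0.27 (SE) for VY35H6BL.1. The ratio of N2 over xpf-1 was 1.18 (0.972 to 1.44) for VY35H6BL.2 and 1.47 (1.12 to 1.94) for VY35H6BL.1. VY35H6BL.1 ends 7.5 kb before Y35H6.3, the first gene of the stretch. The noncoding RNA gene CE7X_3.3 had 0 reads in xpf-1 and 2 in N2.

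The gene models of this end have since been revised. A newer Ensembl annotation of the same build still lists 70 of the 74 gene IDs, and VY35H6BL.1 and VY35H6BL.2 are among the 4 that it does not. Its present model of Y35H6.3 runs from 16541 to 34439, across the deposited spans of both. Its model of CE7X_3.1 begins at 261. When the 4 IDs are left out, an alternative added after seeing the data, the run reaches from CE7X_3.1 at 3623 to set-33 and holds 26 judged genes. Reads that fit several places in the genome can be counted at a copy other than their source, and no sequence was used here that would show whether the kept genes have such copies.

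Many genes of the stretch have changed class in the annotation. Of the 33 genes inside that the deposited table calls protein-coding, 12 are pseudogenes in the newer annotation, or 36.4%, 20 are still protein-coding and 1 is no longer listed. Right of the stretch, 2 of 20 became pseudogenes, and left of it 2 of 4, CE7X_3.1 and CE7X_3.2. Over all deposited protein-coding genes with a read the share was 2.71%, or 546 of 20131. Among the genes of the stretch described above, those still protein-coding include Y73B3A.1, Y73B3A.4, T08D2.5, T08D2.6, T08D2.8, tmed-12, chkr-1 and set-28. Those now pseudogenes are Y35H6.3, Y73B3A.21, Y73B3A.18, Y73B3A.16, Y73B3A.3, Y73B3A.13, cal-6, Y73B3A.9, T08D2.2, AC8.7 and set-33. The reads of Y73B3A.18 also belong to a changed model: the newer annotation places that gene at 59366 to 60750 and extends Y73B3A.20 over 47690 to 58063.

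The right edge fell in a stretch with few reads. After set-33 come math-43, named in the MATH domain family, Y108F1.5 and Y108F1.1. They had 7, 2 and 0 reads in xpf-1 and 18, 5 and 2 in N2. None had enough reads to be judged, and math-43 and Y108F1.1 are pseudogenes in the newer annotation. R57.2 (297248 to 299286) had 1 to 14 reads in the xpf-1 libraries (median 10.5) and 1 to 11 in the N2 libraries (median 2.5), so its sum was larger in xpf-1, 57 against 24. The next judged gene, gcp-2.1, a homologue of glutamate carboxypeptidase II, starts 41.7 kb beyond the end of set-33. It had 1257 to 1644 reads in the xpf-1 libraries (median 1502.5) and 1199 to 1669 in the N2 libraries (median 1421). Its level was 70.2 ± 3.74 CPM in xpf-1 and 71.7 ± 4.70 CPM in N2, a log2 fold of -0.03 ± 0.06 (SE), which edgeR did not call. As a share of N2, the level was 2.34% at set-33, from 1 xpf-1 read, and 97.9% at gcp-2.1.

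From gcp-2.1 rightward no judged gene was under 10% of its N2 level. Of the 15 genes tested there, edgeR's quasi-likelihood test called 8 higher and 0 lower in xpf-1 at an adjusted p of 0.05. Over all 14248 genes tested it called 30.1% higher and 29.6% lower, 59.7% in all. Inside the stretch 13 of 48 genes had enough reads to enter the test and all 13 were called lower, but a gene enters there only through its N2 reads, so that count supports nothing.

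Of the 15 genes, the 7 not called had log2 folds from -0.27 to 0.23 and the 8 called higher from 0.20 to 0.91. Those of highest CPM were nrde-3, an Argonaute that carries small RNAs to the nucleus, and ife-2, an eIF4E cap-binding protein. nrde-3 had 2559 to 3467 reads in the xpf-1 libraries (median 3131) and 1850 to 2883 in the N2 libraries (median 2503.5). That is 147.7 ± 7.58 CPM in xpf-1 and 120.8 ± 11.2 CPM in N2, a log2 fold of 0.29 ± 0.06 (SE), and the groups did not overlap in CPM. ife-2 stood at 95.5 ± 4.48 CPM in xpf-1 and 92.4 ± 3.06 CPM in N2 and was not called. The homeobox gene ceh-93 was not called either, though it was with library totals in place of TMM factors (edgeR adjusted p 0.0301), at 55.6 ± 1.77 CPM in xpf-1 and 52.6 ± 2.64 CPM in N2. sor-3, related to the Hox repressor SOP-2, stood at 38.6 ± 2.27 CPM in xpf-1 and 33.5 ± 1.56 CPM in N2, a called log2 fold of 0.20 ± 0.06 (SE).

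Among the genes tested right of the stretch, R04A9.7 had the largest log2 fold. It had 605 to 729 reads in the xpf-1 libraries (median 689.5) and 307 to 408 in the N2 libraries (median 321), at 31.9 ± 1.12 CPM in xpf-1 and 16.97 ± 1.07 CPM in N2. The log2 fold was 0.91 ± 0.07 (SE) and the groups did not overlap, as for 38.2% of all tested genes. C04E7.3, R04A9.6 and the neuropeptide-like gene nlp-64 (listed as M02E1.2) were the other tested genes at least 1.5-fold higher, with log2 folds of 0.88 ± 0.20, 0.77 ± 0.26 and 0.59 ± 0.20 (SE). None of the tested genes outside the stretch was at least 1.5-fold lower, but CE7X_3.1 and CE7X_3.2, without a read in xpf-1, were not among those tested. Over all tested genes 15% were at least 1.5-fold higher and 10.1% at least 1.5-fold lower. The call of nlp-64 was lost without xpf-1 replicate 4, which held 74 of its reads against 40 to 57 in the other xpf-1 libraries (edgeR adjusted p 0.0588). C04E7.4 and R04A9.9 were also called, with log2 folds of 0.51 ± 0.14 and 0.57 ± 0.14 (SE). The end of C04E7.4 overlaps that of M02E1.1 on the other strand. M02E1.1, M02E1.3, R04A9.3 and C04E7.5 were not called, with log2 folds of 0.13 ± 0.07, 0.23 ± 0.25, 0.15 ± 0.12 and -0.27 ± 0.21 (SE). M02E1.1 was called higher with library totals (edgeR adjusted p 0.0252).

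**Figure D4:**
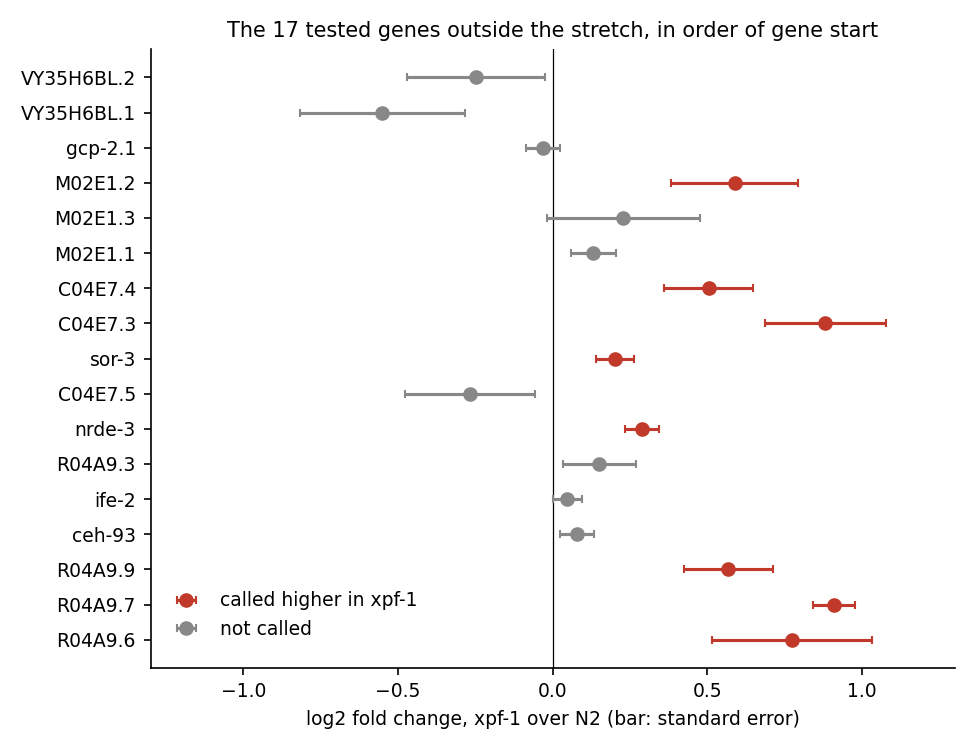
Difference of xpf-1 minus N2 on the log2 scale with its standard error for the 17 tested genes outside the stretch, in order of gene start from the chromosome end. VY35H6BL.2, VY35H6BL.1 and gcp-2.1 border the stretch on either side and were not called; the 8 genes called higher reach 0.91.

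The median log2 fold of the 15 genes tested right of the stretch was 0.23. It was 0.23 over the 2003 tested genes of X beyond position 400000, -0.01 over the 12201 tested on the autosomes and 0.03 over all genes. X is known to be largely silent in the germline, and germline transcripts differed in the same comparison: all 6 germline and oocyte markers had log2 folds below 0 and together stood at 1061 to 1278 CPM in xpf-1 libraries and 2273 to 2693 CPM in N2 libraries. No defining germline marker was at 0 in either group. The part of this difference in the levels of X genes was not tested.

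No other chromosome end looked like this one. Within 400 kb of the left end of X, 27 of 44 judged genes, or 61.4%, were under 10% of N2. At each of the other 11 chromosome ends, with 41 to 81 judged genes within 400 kb, there were 0. The next longest runs by the same rule held 3 genes each, on chromosome IV from clec-190 to col-135 and at 2 places on chromosome V. With xpf-1 and N2 exchanged, the longest run of genes under 10% of the xpf-1 level also held 3 genes, pud-2.2 to pud-4 on chromosome V.

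Genes that maintain telomeres and join broken ends were read in the same fit. Of 18 such genes, 3 rose in xpf-1, 9 fell and 6 did not pass, where 30.1% of all tested genes were called higher and 29.6% lower. The median log2 fold of the 18 was -0.22, against 0.03 over all tested genes. Telomerase, trt-1, fell to 91.1 ± 5.29 CPM in xpf-1, against 143.2 ± 7.77 CPM in N2 (SD, n = 6 each; edgeR adjusted p = 8.44e-13). The end-binding gene pot-2 fell to 75.4 ± 5.74 CPM in xpf-1, against 94.6 ± 7.31 CPM in N2. Other telomere genes of the list did not all follow it. pot-3 was called lower, at a log2 fold of -0.417 ± 0.087 (SE). mrt-1 and tebp-2 were called higher, at 0.272 ± 0.062 and 0.191 ± 0.08 (SE). pot-1 and tebp-1 were not called, at -0.136 ± 0.065 and 0.146 ± 0.066 (SE). The gene polq-1, the polymerase of end joining by short matches, fell to 23.9 ± 2.59 CPM in xpf-1, against 34.2 ± 2.76 CPM in N2. The Ku subunits parted, with cku-80 lower at a log2 fold of -0.30 ± 0.05 and cku-70 higher at 0.24 ± 0.06 (SE). With library totals in place of TMM factors 6 of the 18 rose. The shares over all tested genes given above belong to the TMM fit, so this count has no share to stand beside. In the same libraries the 6 germline and oocyte markers were lower, and their part in these differences was not tested.

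Of 11 genes of X chromosome dosage compensation and its control, 9 rose, 0 fell and 2 did not pass. Over all tested genes 30.1% were called higher and 29.6% lower. The list joins subunits of the complex with genes that control it, so its counts do not describe the complex alone. Among the control genes, xol-1 was called higher at a log2 fold of 0.82 ± 0.16 (SE). The median log2 fold of the 11 was 0.40, against 0.03 over all. In the same libraries the 6 germline and oocyte markers summed to 1061 to 1278 CPM in xpf-1 and 2273 to 2693 CPM in N2, and the 3 intestine markers to 2768 to 5759 CPM in xpf-1 and 1718 to 2454 CPM in N2. Nearly all of the intestine sum was vit-2, with means of 3677 CPM in xpf-1 and 2062 CPM in N2. The means of ges-1 were 18.6 CPM in xpf-1 and 13.85 CPM in N2, and those of elt-2 were 6.74 and 5.91 CPM. The part of these cell types in the list's levels was not tested. The condensin subunit dpy-27, which is specific to the complex on X, rose to 85.7 ± 6.72 CPM in xpf-1, against 55.0 ± 5.62 CPM in N2 (log2 fold 0.64 ± 0.06 SE, edgeR adjusted p = 4.05e-10). sdc-2, which targets the complex to X in hermaphrodites, rose to 70.8 ± 16.4 CPM in xpf-1, against 34.65 ± 3.77 CPM in N2. dpy-26 and dpy-30 did not pass, at log2 folds of 0.10 ± 0.05 and -0.10 ± 0.05 (SE). All of these genes lie outside the left end of X.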

How the data were processed

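RNA of whole day-7 adults was sequenced from 6 xpf-1 and 6 N2 libraries, grouped by their titles. The labels speak of triplicates, so p-values measure the spread between libraries, part of which may be technical. CASAVA, HISAT2 2.1.0, featureCounts 1.5.0-p3 and build WBcel235 are named in the submitters' processing notes. The authors deposited raw read counts, used here for every value. They also deposited FPKM values, a signal of counts over size factors, log2 fold changes and p-values, none of which is printed here. The counts summed over all genes were 18407182 to 22817135 reads per library.

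The test was that of edgeR 4.0.16 under R 4.3.3 (filterByExpr, TMM, robust quasi-likelihood test, no covariates, Benjamini-Hochberg over 14248 genes), checked on simulated data. Standard errors are of log2 fold changes of xpf-1 over N2. Alternatives included DESeq2 1.42.0. The genes, lists and rules were chosen with earlier results of these data known. Genes named are all judged ones inside the stretch, the 5 nearest judged ones on each side, and outside it the 5 of highest CPM, the 3 largest changes each way and all changed 1.5-fold, with every gene inside the stretch that had reads in both groups; further ones were named where a sentence turned on them. Replicate numbers did not pair the libraries. Positions, lengths and gene names are those of the deposited table. Newer symbols and revised models come from Ensembl release 115. No sequences are shown.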

Additional observations from a re-analysis of the deposited data

Results flagged for a closer look

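For 6 of 66 groups of libraries looked at, 1 library lay far from the other 5 of its group; chance alone gives about 1 in 20. In N2 replicate 2, CE7X_3.1 stood at 0.339 CPM against 0.681 to 0.838 in the other N2 libraries, T08D2.11 at 1.244 against 0.272 to 0.584, and M02E1.3 at 2.88 against 1.04 to 1.65. In xpf-1 replicate 4, nlp-64 (M02E1.2) stood at 3.625 CPM against 2.17 to 2.49 in the other xpf-1 libraries. R04A9.3 stood at 5.63 CPM in xpf-1 replicate 1 against 7.30 to 7.94 in the others, and ceh-93 at 52.1 CPM in xpf-1 replicate 2 against 55.7 to 56.9 in the others.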

How the results depend on the processing

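The stretch held 25 judged genes under library totals and with a limit of 25% of N2. It held 11 at a limit of 5%, where it ended with Y73B3A.10, and 16 among genes of at least 100 N2 reads; with at least 10 reads Y73B3A.2 split it and 28 genes followed; without IDs absent from the newer annotation, a choice added after seeing the data, it held 26. Leaving out single libraries gave 20 to 25 genes (20, ending with Y73B3B.5, without xpf-1 replicate 1, 4 or 6, and 23, ending with pme-6, without N2 replicate 1 or 3), with the left edge at Y35H6.3 each time, and summed levels of 0.681 to 0.836 CPM in xpf-1 and 147.3 to 150.2 CPM in N2. Calls lower inside were 37 without a low-count filter and 13 to 16 with a library left out. None of the 13 tested genes lost its call under any setting. These genes were chosen for their lost reads, so neither result supports anything. Shares called over all genes were taken only for the fit with the filter, TMM factors and all 12 libraries. Outside, 0 genes were called lower, but 2 without the filter and 0 to 1 with a library left out. CE7X_3.1 and CE7X_3.2, which had no read in xpf-1, did not pass the filter of the main fit and so could not be called there. Calls higher outside were 10 with library totals, where M02E1.1 and ceh-93 were added, 7 to 8 with a library left out, and 4 reached 1.5-fold, a limit added after seeing the data. The longest run elsewhere was 5 genes at a limit of 25%. The telomere list had 6 higher calls with library totals (2 to 4 with a library left out). The dosage compensation list had 1 lower call without the filter and 0 to 1 with a library left out. gcp-2.1 turned to a log2 fold of 0.036 with library totals, uncalled in both fits; sor-3 lost its call without the filter (edgeR adjusted p 0.0519). The causes were not tested. With the replicate number as a block, 13 genes were called lower inside; deviations of same-numbered libraries correlated at -0.0031 to 0.1196, so the numbers give no pairing, and 2 of 6 xpf-1 libraries correlated best with their own number. Genes under 30 N2 reads were not judged one by one, and their fold bounds are low, at least 10.2 for T08D2.4 with 29 N2 reads.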
